A study of Mus musculus with 27 samples.

Results

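The transcripts compared here are those of PD-1-negative CD8+ T cells that carry KLRG1 at the surface and of PD-1-negative CD8+ T cells that do not, both taken from tumours of mice given the isotype control. The 2 groups were chosen by their titles, with 4 libraries per gate, and make up 8 of the 27 RNA-seq libraries of the series. The tumours were MC38, which derives from a mouse colon adenocarcinoma line. Tumours were digested, stained, and sorted for live CD45+ CD3+ CD8+ cells, which were split on PD-1 and on KLRG1. Iso stands for isotype-treated mice, and Tri for mice under a combined therapy, TCT in the series text. The agents of that therapy, doses, times, the age of the mice and the strain of the host were not stated in the material analysed here. The 19 other libraries are Tri PD1-KLRG1+ (4), Tri PD1-KLRG1- (5), Tri PD1+KLRG1+ (5) and Tri PD1+KLRG1- (5). Nor do the labels say that each library came from a separate mouse, so p-values refer to the spread between libraries, which may be technical.

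KLRG1 is an inhibitory receptor of the killer lectin family that binds cadherins. On CD8+ T cells it marks late effector cells, which kill well, home to blood and inflamed tissue and persist poorly. Its counterpart in acute infections is the KLRG1-low, IL-7 receptor-high memory precursor. T-bet (Tbx21) and ZEB2 act together in the late effector programme, while TCF1, LEF1, ID3 and BCL2 belong to cells that persist and can divide again. PD-1 appears on T cells that receive antigen signals, so a PD1- gate can hold effector cells, memory cells or cells that have not met antigen.

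Before any gene is compared, the libraries themselves differed between the gates. Library totals were 6991521, 7171417, 93198 and 19929546 counts in KLRG1+ replicates 1 to 4, and 15545448, 11602005, 15284601 and 26284630 in the KLRG1- replicates. When every library was thinned to 93198 counts, the KLRG1+ libraries held 6516 ± 483 genes (SD, n = 4) and the KLRG1- libraries 9145 ± 147. The 2 sets did not overlap (2-sided exact permutation p = 0.0286, the smallest that 4 against 4 allow, and 0.0952 adjusted over 10 library measures). Log2 CPM of 2 KLRG1+ replicates correlated at 0.54 to 0.66 across genes, and of 2 KLRG1- replicates at 0.85 to 0.91. CPM are counts scaled to library totals corrected by TMM. One count in KLRG1+ replicate 3 was worth 9.21 CPM, so its low values are steps of that size. KLRG1+ replicate 4 held 13910 CPM of 18 myeloid marker genes against 525 to 1674 CPM in the 3 other KLRG1+ libraries and 1690 to 5637 in the KLRG1- libraries. It also held 4156 CPM of 16 tumour and stroma markers, against 101 to 649 CPM in its 3 companions. The leading T cell receptor beta segment took 17.8% (95% Wilson interval 16.5 to 19.2), 15.9% (14.7 to 17.2), 37.7% (25.9 to 51.2) and 27.6% (26.7 to 28.6) of Trbv counts in KLRG1+ replicates 1 to 4. It took 11.14 to 12.96% in the KLRG1- libraries (exact permutation p = 0.0286, adjusted 0.0952). These intervals cover counting error only, and KLRG1+ replicate 3 held just 53 Trbv counts. The leading segment was another one in each KLRG1+ library (Trbv13-2, Trbv1, Trbv16 and Trbv19). In bulk RNA, fewer cells of a type and less RNA per cell cannot be told apart.

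**Figure D1:**
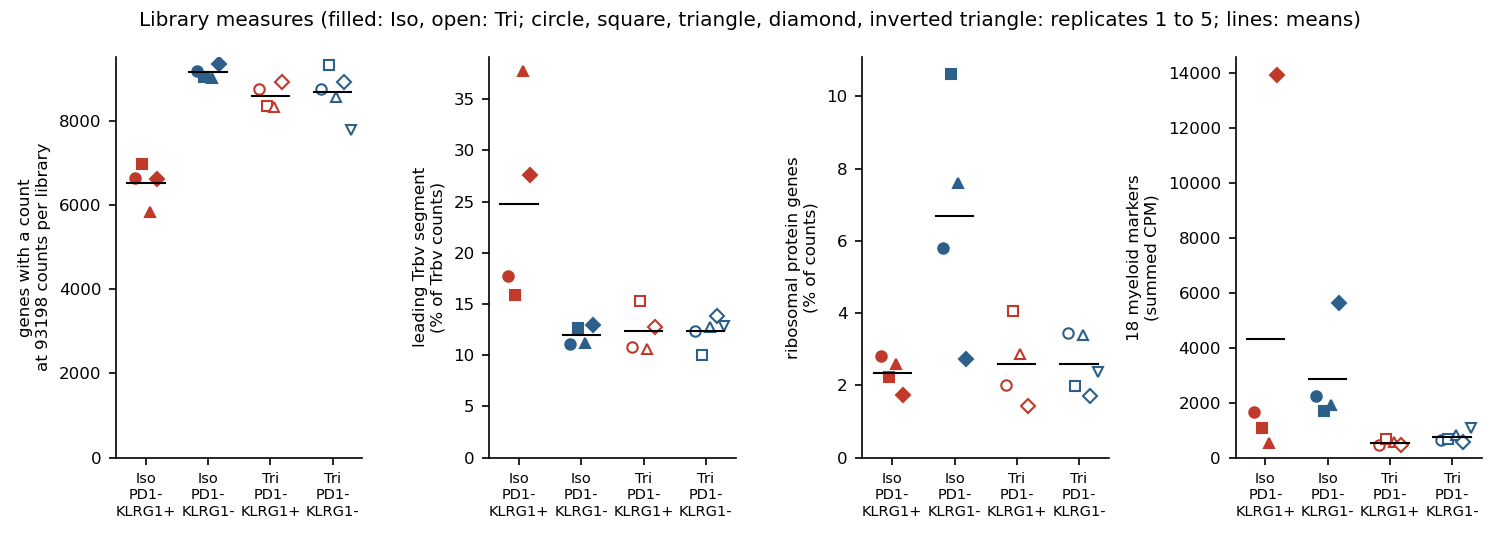
Library measures of the PD1- groups, 1 point per library with the mean as a line: genes with a count after thinning, share of the leading Trbv segment, share of ribosomal protein genes, and summed CPM of myeloid markers. The 4 Iso PD1-KLRG1+ libraries hold fewer genes than every other library shown, and its replicate 4 stands alone in myeloid transcripts.

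Because of this, the account rests on 5169 genes whose mean reached 50 CPM in at least 1 Iso group. A gene was called when its adjusted p in edgeR's quasi-likelihood test, fitted to all 27 libraries and adjusted over 14059 genes, was under 0.05. That fit uses a common estimate of the spread per gene for its 6 groups. Iso PD1-KLRG1+ replicates correlated less with each other than Iso PD1-KLRG1- replicates did, so the p-values do not rest on their own wider spread alone. Of the 5169 genes, 166 (3.21%) were called higher and 297 (5.75%) lower in KLRG1+ cells. These shares are the background for the counts of well-expressed list members given below. Over all 14059 genes tested the calls were 174 higher (1.24%) and 1044 lower (7.43%), but 490 of the 1044 had no count in any KLRG1+ library and 250 more had one in only 1 or 2. The median log2 fold change was -0.52 over all genes and -0.05 over the well-expressed ones. All 4 KLRG1+ libraries lay above all 4 KLRG1- libraries in 133 well-expressed genes (2.57%), and below them in 368 (7.12%). With another scaling of the libraries (median ratios), which raised the median log2 fold change by 0.148, the well-expressed calls were 264 higher and 222 lower. Leaving out KLRG1- replicate 1, 2 or 3 gave 94, 83 or 88 higher, leaving out KLRG1+ replicate 4 gave 251 higher and 462 lower, and leaving out KLRG1+ replicate 1 gave 492 lower. Over all genes, 98, 85 and 90 were higher without KLRG1- replicates 1, 2 and 3 in turn, and 276 without KLRG1+ replicate 4. A fit of the 8 Iso libraries alone called 31 of the 166 and 84 of the 297, and a fit without KLRG1+ replicates 3 and 4 called 116 and 230.

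**Figure D2:**
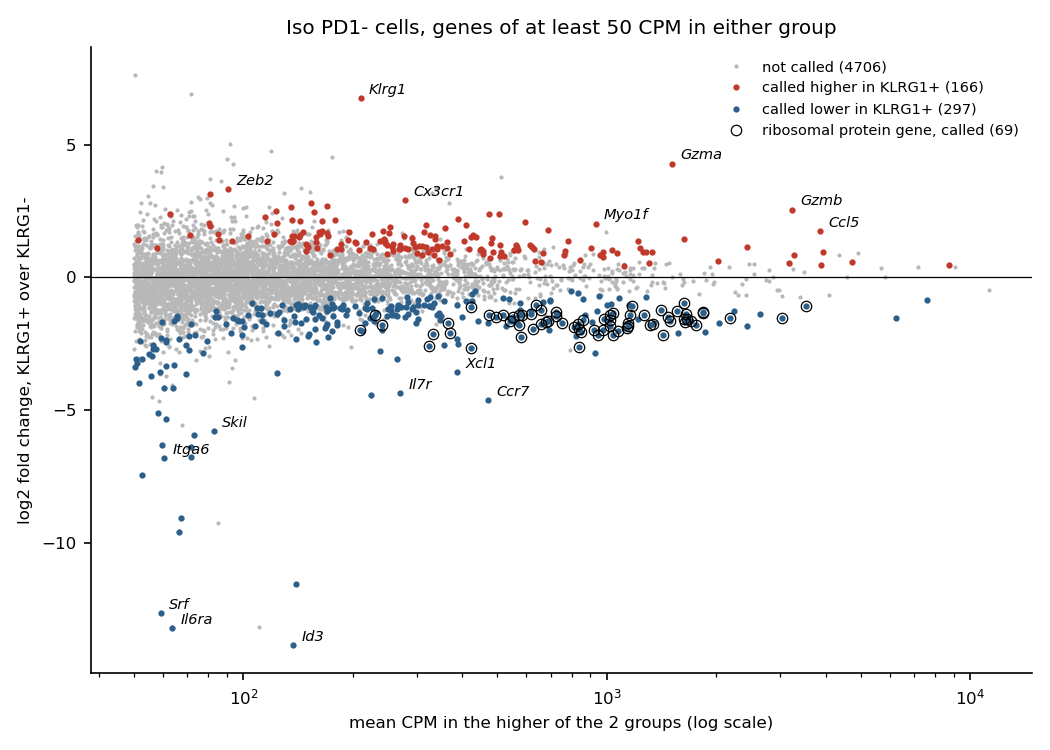
Log2 fold change of KLRG1+ over KLRG1- Iso PD1- cells (vertical) against the mean CPM of the higher group (horizontal, log scale), 1 point per well-expressed gene. Called genes are coloured (166 higher, 297 lower), and the circled points are 69 ribosomal protein genes, all of which are below 0.

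Klrg1, the marker that separates the gates, followed the labels. Klrg1 (ENSMUSG00000030114) was at 184, 309, 138 and 210 CPM in KLRG1+ replicates 1 to 4 and at 2.49, 0.196, 0 and 4.40 CPM in the KLRG1- replicates (log2 fold change 6.75 ± 0.93 SE, adjusted p = 4.93e-05). Pdcd1, the gene of PD-1, was at 206, 145, 0 and 0.055 CPM in KLRG1+ and at 32.5 to 78.2 CPM in KLRG1- libraries. It was thus high in 2 KLRG1+ libraries and nearly absent in the 2 others, and it was not called (0.74 ± 0.81, adjusted p = 0.63). Without replicates 3 and 4 its log2 fold change was 1.63 (adjusted p = 0.00624). Cd3e, Cd8a, Cd8b1 and Ptprc (CD45) were present in every library and none was called, with log2 fold changes of 0.18, -0.37, -0.26 and 0.15. Cd4 had no count in any of the 8 libraries.

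The clearest gain in KLRG1+ cells was in the killing machinery. Gzmb (ENSMUSG00000015437) encodes granzyme B, a protease that triggers death in target cells, and was at 4532, 3024, 2211 and 3128 CPM in KLRG1+ replicates 1 to 4, and at 563, 546, 567 and 523 CPM in the KLRG1- replicates. The KLRG1- libraries were almost equal, and the lowest KLRG1+ library lay far above them (log2 fold change 2.56 ± 0.21, adjusted p = 2.85e-08). The call of Gzmb was kept in each of 21 alternative fits, with log2 fold changes of 2.32 to 3.07. Gzma, granzyme A, was at 3969, 528, 1050 and 510 CPM against 63.3, 82.7, 99.4 and 41.0 (4.28 ± 0.83, adjusted p = 0.00156). Replicate 1 was thus far above its companions, yet the groups did not overlap. Gzmk, granzyme K, was also highest in KLRG1+ replicate 1, at 951 CPM, with 276 to 366 in the others and 56.4 to 116 in KLRG1- libraries (2.37 ± 0.33, adjusted p = 5.15e-05). Prf1, the pore-forming perforin, was at 517, 450, 230 and 240 CPM against 128, 58.5, 82.0 and 138 (1.85 ± 0.29, adjusted p = 0.00023). Fasl, the ligand of the death receptor Fas, was at 332 to 533 CPM against 67.9 to 182 (1.52 ± 0.25, adjusted p = 0.000344). Serpinb9, an inhibitor that shields the killer cell from its own granzyme B, was at 117 to 217 CPM against 46.6 to 81.7 (1.54 ± 0.24, adjusted p = 0.000159). Ctsd, the lysosomal protease cathepsin D, was at 1912 to 2736 CPM against 760 to 1686 (1.13 ± 0.19, adjusted p = 0.000277).

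Of the 14 well-expressed members of the cytotoxic list, 9 rose and none fell, with a median log2 fold change of 1.44 against -0.05 over all well-expressed genes. The 8-library fit called 6 of the 14, and the fit without replicates 3 and 4 called 8 higher and 2 lower, Srgn and Gzmc. The other two that rose were Serpinb6b, a relative of Serpinb9 (1.35, adjusted p = 0.0343; 8-library fit 0.588), and Lamp1. Members that did not pass include Nkg7, a granule membrane protein (0.20), Ctsw, cathepsin W (-0.30), and Srgn, the proteoglycan that packs granzymes (-0.70, adjusted p = 0.0921, and -1.18 with 0.0058 without replicates 3 and 4). Lamp1, a lysosomal membrane protein, passed at 0.87 (adjusted p = 0.0455) but not without replicates 3 and 4 (adjusted p = 0.54). Gzmc was at 329 CPM in KLRG1+ replicate 4 and at 0 in the 3 others, and was not called with all libraries, so its lower call above rests on 2 libraries at 0.

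The promoter windows of both killing genes below are the 250 bases before the annotated start in the RefSeq table (GRCm38.p6), read 5′ to 3′ on the gene's strand. They are shown because their transcripts rose together, and capitals mark a match to the E-box CACCTG, which ZEB2 and related factors bind, on either strand. Gzmb lies on the minus strand at chr14:56262335-56262584 and Prf1 on the plus strand at chr10:61297586-61297835.
Gzmb: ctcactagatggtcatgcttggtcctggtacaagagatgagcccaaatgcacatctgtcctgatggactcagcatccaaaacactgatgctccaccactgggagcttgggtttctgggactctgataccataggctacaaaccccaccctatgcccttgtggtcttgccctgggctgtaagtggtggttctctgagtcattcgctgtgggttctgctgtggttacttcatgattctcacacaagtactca
Prf1: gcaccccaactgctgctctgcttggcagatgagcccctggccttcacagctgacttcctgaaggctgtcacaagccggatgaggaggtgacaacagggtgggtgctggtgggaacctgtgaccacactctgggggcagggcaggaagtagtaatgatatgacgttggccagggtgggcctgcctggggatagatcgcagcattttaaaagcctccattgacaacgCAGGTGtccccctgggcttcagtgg

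Among transcription factors of the effector state, Zeb2, Tbx21 and Bhlhe40 rose. Zeb2, a zinc-finger repressor of terminal effector cells, was at 132, 36.7, 101 and 93.1 CPM in KLRG1+ libraries and at 6.13, 5.18, 8.94 and 18.4 CPM in KLRG1- libraries (3.33 ± 0.64, adjusted p = 0.00129). Tbx21, T-bet, was at 423, 490, 323 and 379 CPM against 218, 96.4, 126 and 196 (1.38 ± 0.25, adjusted p = 0.000671). Bhlhe40, a factor of activated T cells that sustains cytokine production, was at 231, 606, 627 and 284 CPM against 175, 98.5, 141 and 180 (1.53 ± 0.26, adjusted p = 0.000384). None of the 3 overlapped between the gates. In the 8-library fit Tbx21 was called (adjusted p = 0.041), while Zeb2 and Bhlhe40 were at 0.0582. Among 12 well-expressed effector factors, these 3 rose and Ikzf2 (Helios) fell, and the list median was 0.25. Eomes, Runx3, Id2, Klf2 and Batf did not pass, with log2 fold changes between -0.50 and 0.30. The call of Ikzf2 (-2.90 ± 0.86, adjusted p = 0.0347) was lost without KLRG1+ replicate 1 or 3 or KLRG1- replicate 1, 2 or 3 (adjusted p up to 0.0821).

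Of 11 well-expressed killer lectin and NK-type receptor genes, Klrg1 and Klrk1 rose and none fell. The rise of Klrg1 was set by the sort and says nothing about the list, which leaves Klrk1 as its only other call. Over all well-expressed genes 3.21% rose and 5.75% fell. Klrk1, the activating receptor NKG2D, was at 415, 484, 498 and 639 CPM against 388, 184, 289 and 288 (0.81 ± 0.18, adjusted p = 0.00468; 8-library fit 0.19). Klrc1 (NKG2A, 0.87) and Klrd1 (CD94, -0.92), which pair in 1 receptor, were not called. Their groups overlapped, with Klrd1 at 264, 56.6, 73.7 and 155 CPM against 164 to 351.

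Among trafficking receptors, Cx3cr1 rose and Ccr7 fell, while the chemokine receptors Cxcr3 (-0.12) and Cxcr6 (0.08) were not called. Cx3cr1, the fractalkine receptor of blood-borne effector cells, was at 313, 190, 129 and 482 CPM in KLRG1+ libraries and at 14.2, 18.6, 41.7 and 84.1 CPM in KLRG1- libraries (2.90 ± 0.48, adjusted p = 0.000337). Myeloid cells also express Cx3cr1, and its highest value was in the library with 13910 CPM of myeloid markers. Without replicates 3 and 4 the difference was as large (2.95, adjusted p = 0.000673). S1pr5, a sphingosine phosphate receptor of circulating effector cells, was at 201, 175, 212 and 114 CPM against 14.1, 3.71, 18.5 and 1.34. Its groups were far apart, and it was called in the 8-library fit (adjusted p = 0.0362) but not in the fit of all 27 libraries (4.52 ± 1.64, adjusted p = 0.0921). Ccr7, the receptor that guides T cells into lymph nodes, was at 0.435, 61.3, 27.6 and 0 CPM against 563, 433, 403 and 489 (-4.61 ± 1.09, adjusted p = 0.00751; 8-library fit 0.16). Every KLRG1+ library lay below every KLRG1- library, but the 4 differed widely among themselves.

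Gpr183, an oxysterol receptor that positions lymphocytes, fell by 1.19 on the log2 scale (adjusted p = 0.0129). Its KLRG1+ replicate 3 lay at 175 CPM, inside the KLRG1- range of 165 to 180. Of 10 well-expressed chemokine and trafficking receptors, 3 rose and 2 fell, against 3.21% and 5.75% of all well-expressed genes. Ccr2, a monocyte and effector cell receptor, was among those that rose (1.92, adjusted p = 0.0462), but the call was lost without any 1 of KLRG1+ replicates 1, 3 and 4 and KLRG1- replicates 1 to 3 (adjusted p up to 0.147). Its highest value, 436 CPM, was in the library rich in myeloid transcripts, and the part of those transcripts in it was not tested.

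Among adhesion genes, Itgb2, the beta chain of LFA-1 and other leukocyte integrins, was at 2257, 1590, 1714 and 939 CPM against 556, 457, 511 and 953 (1.45 ± 0.24, adjusted p = 0.000277). Only replicate 4 of each gate overlapped. Itga6, the laminin-binding alpha-6 chain, was at 1.01, 0.138, 9.21 and 0.055 CPM in KLRG1+ libraries, where 0.138, 9.21 and 0.055 CPM are single counts. In KLRG1- libraries it was at 38.5, 76.5, 38.5 and 88.4 CPM (-6.78 ± 1.45, adjusted p = 0.00348). Emb, embigin, was at 82.8 to 209 CPM against 353 to 437 (-1.50 ± 0.27, adjusted p = 0.000744). Of 16 well-expressed adhesion genes, 3 rose and 2 fell, against 3.21% and 5.75% of all well-expressed genes. The other two that rose, Fgl2 (1.06) and Itgal (0.86), lost the call without KLRG1+ replicate 2 or KLRG1- replicate 1 or 2, Fgl2 also without KLRG1+ replicate 4, and Itgal without KLRG1+ replicate 3 and KLRG1- replicate 3. Their adjusted p then reached 0.128 and 0.166.

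Secreted factors went both ways. Ccl5, a chemokine stored by memory and effector CD8+ cells, was at 5980, 2981, 4920 and 1567 CPM against 1119, 1344, 1487 and 559 (1.74 ± 0.30, adjusted p = 0.000507). Xcl1, the chemokine that draws cross-presenting dendritic cells, was at 0.290, 40.7, 18.4 and 56.3 CPM against 440, 547, 309 and 251 (-3.57 ± 0.86, adjusted p = 0.00877). Ltb, lymphotoxin beta, was at 424 to 660 CPM against 917 to 1149 (-1.004 ± 0.18, adjusted p = 0.000631). Ifng, interferon gamma, had means of 215 and 135 CPM and was not called (0.65 ± 0.44, adjusted p = 0.38). These 3 were the only calls among 8 well-expressed cytokine and chemokine genes.

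The plot of values by library shows how evenly or unevenly these differences were shared among replicates. Gzma, Gzmb, Gzmk and Tbx21 were higher in each KLRG1+ library than in any KLRG1- library. Several lower genes, such as Ccr7 and Xcl1, were near 0 in some KLRG1+ libraries and between 18.4 and 61.3 CPM in others.

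**Figure D3:**
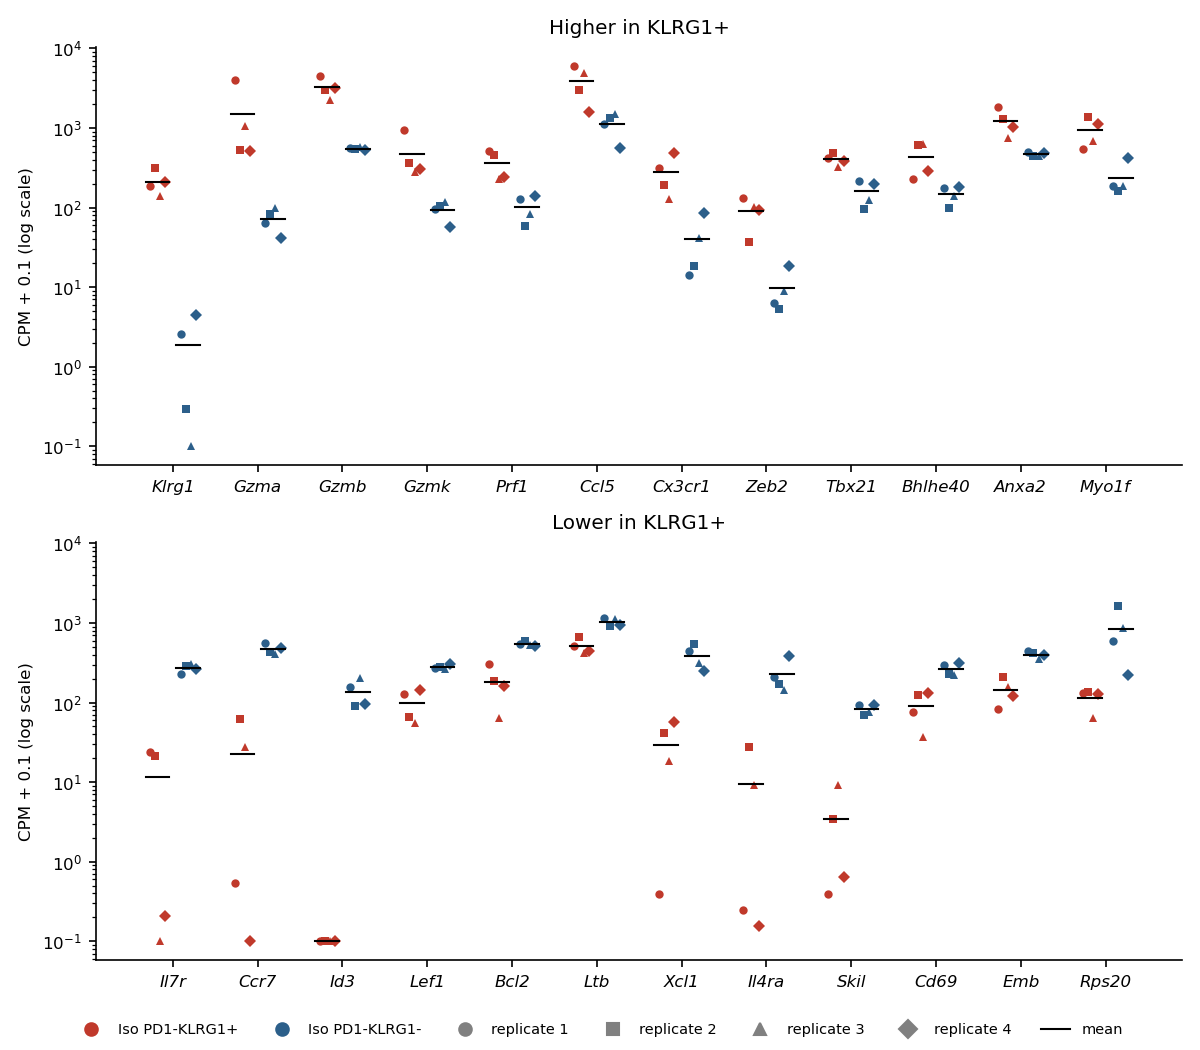
CPM plus 0.1 (log scale) of 12 higher and 12 lower genes in each Iso PD1- library, with the mean of 4 libraries as a line and a symbol per replicate number. Gzmb lies between 2211 and 4532 CPM in KLRG1+ libraries and between 523 and 567 in KLRG1- libraries, while Id3 is at 0 in all 4 KLRG1+ libraries.

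Genes of stem-like and memory cells were lower in KLRG1+ cells. Il7r (ENSMUSG00000003882), the receptor chain for the survival cytokine IL-7, was at 23.9, 21.4, 0 and 0.109 CPM in KLRG1+ libraries and at 229, 287, 302 and 264 CPM in KLRG1- libraries (-4.35 ± 0.73, adjusted p = 0.000355; 8-library fit 0.0405). Without replicates 3 and 4, which had almost no Il7r counts, the log2 fold change was -3.60 (adjusted p = 1.45e-06). Id3, an inhibitor of E-protein factors in memory precursors, had no count in any KLRG1+ library and was at 155, 91.4, 205 and 97.0 CPM in KLRG1- libraries. With 3 counts over the 4 libraries as the floor, or 0.0921 CPM, Id3 was at least 1489-fold lower (edgeR adjusted p = 0.000186, 8-library fit 0.0362). This bound covers counting error only, and KLRG1+ libraries lacked a count in 9.94 to 29.5% of genes that are well expressed in the series. Lef1, a partner of beta-catenin in naive and memory T cells, was at 129, 64.9, 55.3 and 142 CPM against 272, 281, 263 and 300.2 (-1.50 ± 0.35, adjusted p = 0.00727). Satb1, a chromatin organiser of naive T cells, was at 1.16, 185, 9.21 and 20.9 CPM against 288 to 427 (-2.54 ± 0.71, adjusted p = 0.0239, and 0.154 without replicates 3 and 4). Bcl2, the survival protein that IL-7 sustains, was at 308, 185, 64.5 and 162 CPM against 541, 596, 522 and 509.9 (-1.53 ± 0.38, adjusted p = 0.0107, and 0.0803 without replicates 3 and 4).

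Of 15 well-expressed members of the stem-like and memory list, 8 fell and none rose, and only 1, S1pr1, had a positive log2 fold change. The list median was -1.52, and the 8-library fit called 3 of the 15. Ccr7 and Xcl1 belong to this list too, and Foxp1, a factor of quiescent T cells, completes the 8 (-1.20, adjusted p = 0.0384). Tcf7, which encodes TCF1, was not called. It was at 306, 305, 424 and 0 CPM against 534 to 830, so each KLRG1+ library lay below each KLRG1- library, and the value of 0 came from replicate 4 alone (-1.43 ± 1.21, adjusted p = 0.50). Slamf6 (-1.52), Cd27 (-0.25) and Cd28 (-0.53) were not called either.

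The windows before the starts of Il7r (minus strand, chr15:9529877-9530126) and Id3 (plus strand, chr4:136143572-136143821) are shown for 2 memory genes called lower in all 3 fits, from the same RefSeq table and build, and hold no match to the motifs searched.
Il7r: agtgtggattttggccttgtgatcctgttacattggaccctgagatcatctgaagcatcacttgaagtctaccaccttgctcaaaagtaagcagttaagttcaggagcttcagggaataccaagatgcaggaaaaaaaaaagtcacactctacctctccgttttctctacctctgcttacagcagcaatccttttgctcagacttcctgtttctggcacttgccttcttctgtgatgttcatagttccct
Id3: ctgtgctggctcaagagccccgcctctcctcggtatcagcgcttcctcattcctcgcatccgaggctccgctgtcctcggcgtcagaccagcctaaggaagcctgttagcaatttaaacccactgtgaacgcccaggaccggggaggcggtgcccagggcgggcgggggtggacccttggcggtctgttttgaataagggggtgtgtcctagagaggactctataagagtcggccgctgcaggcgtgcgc

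The motifs searched, on both strands were the T-box site GGTGTGA, the E-box CACCTG and the TCF and LEF site CTTTGAT, chosen for T-bet, ZEB2 and LEF1. The E-box lay in 15.8% of 158 windows of genes called higher, 9.39% of 277 windows of genes called lower, 14.4% of windows of all well-expressed genes and 17.2% of all 32851 windows in the table. The T-box site lay in 1.90%, 1.81%, 2.88% and 3.33%, and the TCF and LEF site in 1.27%, 2.89%, 2.19% and 3.21% of the same sets. The table matched 127 of the 166 and 221 of the 297 genes. These shares describe letters in the windows and no binding.

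Other cytokine receptors joined Il7r. Il4ra, the IL-4 receptor, was at 0.145, 27.6, 9.21 and 0.055 CPM against 207, 171, 142 and 380 (-4.41 ± 0.99, adjusted p = 0.00495). Il6ra, the IL-6 receptor, had no count in KLRG1+ libraries. It was at 52.1, 81.1, 60.8 and 60.5 CPM in KLRG1- libraries (edgeR adjusted p = 0.0157). By the floor used for Id3, which covers counting error only, Il6ra was at least 690-fold lower in KLRG1+ libraries. Il10ra, the IL-10 receptor, went the other way, at 254, 445, 111 and 295 CPM against 71.1, 98.6, 73.1 and 147 (1.57 ± 0.34, adjusted p = 0.00351). Socs1, a feedback inhibitor of cytokine signals, was called lower (-0.94, adjusted p = 0.0498), but not without KLRG1+ replicate 1 or 4 or any 1 KLRG1- library (adjusted p up to 0.145). Of 24 well-expressed genes of cytokine receptors, STATs and their regulators, 1 rose and 4 fell, and the median was -0.08. Over all well-expressed genes 3.21% rose and 5.75% fell. The chains shared by several cytokines, Il2rb and Il2rg, had log2 fold changes of -0.06 and -0.15.

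Only 3 well-expressed genes called lower had no count in any KLRG1+ library, Id3, Il6ra and Srf. Srf, serum response factor, drives actin and early response genes. It was at 55.6, 68.0, 81.0 and 32.8 CPM in KLRG1- libraries, and by the floor used for Id3 at least 644-fold lower in KLRG1+ libraries. Just under 50 CPM, Klra6, an NK-type receptor gene with close relatives, Pwp2, a ribosome assembly factor, and Tent5c, a poly(A) polymerase, had means of 41.3 ± 12.1, 40.7 ± 16.5 and 40.0 ± 14.9 CPM in KLRG1- libraries and no count in KLRG1+ libraries. Skil, a repressor of SMAD signalling, was at 0.290, 3.31, 9.21 and 0.546 CPM against 92.0, 69.0, 76.3 and 94.0 (-5.77 ± 0.63, adjusted p = 1.92e-06). As KLRG1+ libraries also lacked a count in 9.94 to 29.5% of 6969 genes that are well expressed in the series, against at most 0.0861% in KLRG1- libraries, the part of this low gene number in such values was not tested. In Tri PD1-KLRG1+ libraries Skil was at 125 ± 41.0, Srf at 58.6 ± 9.94, Id3 at 9.21 ± 3.22 and Il6ra at 0.576 ± 1.15 CPM (n = 4).

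Ribosomal protein genes were lower in KLRG1+ libraries nearly as a block. Of 76 well-expressed members, 69 fell and none rose, with a median log2 fold change of -1.64, and they made up 23.2% of all well-expressed genes called lower. The 8-library fit called 43 of them, and the fit without replicates 3 and 4 called 69. Rps20, a small-subunit protein, was at 130, 135, 64.5 and 128 CPM against 600.2, 1648, 873 and 222 (-2.63 ± 0.43, adjusted p = 0.000271). Rpl13, of the large subunit, was at 1038, 909, 866 and 1128 CPM against 2832, 4357, 3397 and 1549 (-1.54 ± 0.25, adjusted p = 0.000232). KLRG1+ replicate 3 was the lowest library for both genes, replicate 4 was the lowest of the KLRG1- libraries, and the groups did not overlap. As a share of all counts, ribosomal protein genes took 2.80, 2.24, 2.60 and 1.74% in KLRG1+ and 5.81, 10.6, 7.61 and 2.73% in KLRG1- replicates 1 to 4, which overlap (exact permutation p = 0.0571, adjusted 0.114). The 3 high KLRG1- libraries lay above all 24 other libraries of the series, whose highest share was 4.05%. Replicate 4 of both gates has a suffix in its description, which the labels do not explain, and the other Iso libraries do not. Within the libraries without this suffix, 154 well-expressed genes were called higher and 301 lower, and with it there is 1 library per gate and no test. Other abundant transcripts of translation also fell, among them Eef1a1, an elongation factor (-1.51), Npm1, nucleophosmin (-1.99), and Naca (-1.71). These 3 were chosen after their values were seen.

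Some genes that respond early to activation were lower. Cd69, which retains cells in tissue and appears early after activation, was at 75.5, 123, 36.9 and 131 CPM against 297, 225, 224 and 316 (-1.45 ± 0.29, adjusted p = 0.00172). Btg1, an antiproliferative gene of quiescent cells, was at 451 to 774 CPM against 1037 to 1330 (-1.04 ± 0.16, adjusted p = 0.000219). Nfkbia, an NF-kappaB inhibitor, fell by 1.46 (adjusted p = 0.021, and 0.0536 without KLRG1+ replicate 1). Of 16 well-expressed early response genes, 4 fell and none rose, against 5.75% and 3.21% of all well-expressed genes. The fourth, Jund, an AP-1 subunit (-0.63, adjusted p = 0.0312), lost its call without KLRG1+ replicate 4 or KLRG1- replicate 1, 3 or 4 (up to 0.0804). Fos, Jun, Junb and Egr1 were not called, at 0.07, -0.84, -0.43 and 0.62.

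Cytoskeletal, annexin and galectin genes were higher in part. Anxa2, a membrane-binding annexin, was at 1824, 1282, 737 and 1026 CPM against 497, 446, 442 and 488 (1.38 ± 0.18, adjusted p = 2.50e-05). Myo1f, an unconventional myosin of leukocytes, was at 542, 1369, 682 and 1132 CPM against 187, 159, 185 and 421 (2.03 ± 0.31, adjusted p = 0.000177). Flna, filamin A, was at 716 to 1472 CPM against 324 to 608 (1.03 ± 0.24, adjusted p = 0.00617). Tmsb10, an actin-binding thymosin, fell (-1.39 ± 0.25, adjusted p = 0.000775), with 618 to 1121 CPM against 845 to 4716. Of 24 well-expressed members, 7 rose and 1 fell, against 3.21% and 5.75% of all well-expressed genes, and the median was 0.39. Anxa1, which neutrophils and macrophages hold in large amounts, was highest in KLRG1+ replicate 4, at 327 CPM, and its call (2.13, adjusted p = 0.00778) was lost without that library (0.0566). The part of myeloid transcripts in it was not tested.

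Cell cycle genes were higher in 19 of 21 well-expressed members by sign, against 2454 of all 5169 well-expressed genes. Only 4 of the 21 were called, and the 8-library fit called none. In Tri PD1- cells the list median was 0.535. Mcm6, of the replicative helicase, was at 729, 656, 682 and 419 CPM against 280, 199, 176 and 519 (1.16 ± 0.27, adjusted p = 0.00658). Ccnb2, cyclin B2, was at 217, 160, 55.3 and 118 CPM against 35.3 to 56.0 (1.55 ± 0.39, adjusted p = 0.0126). Ccna2 and Hmgb2 were the other two, and the call of Ccna2 (adjusted p = 0.0414) was lost without KLRG1+ replicate 1 or KLRG1- replicate 1, 2 or 3 (up to 0.144). Mki67 was at 124, 81.5, 82.9 and 0 CPM against 58.8 to 113 and not called (-0.23). Without replicates 3 and 4 the list median rose from 0.67 to 1.15, with 8 members called. E2f2, an E2F factor, was among the leading genes, at 116, 142, 175 and 111 CPM against 35.0, 42.5, 28.8 and 16.1 (2.17 ± 0.53, adjusted p = 0.0102).

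The other leading genes that rose, by the same rule, were Pik3ap1, an adaptor of PI3-kinase (2.82), H2-Q10, an MHC class I gene with near-identical relatives whose reads may be shared (2.70), Errfi1, a feedback inhibitor of the EGF receptor (2.49), Ncald (2.38), Ehbp1l1 (2.20), Pear1 (2.15) and Sh2d3c (2.07). Sh2d3c, a signalling adaptor of lymphocyte adhesion and migration, was at 434, 425, 1078 and 451 CPM against 136, 106, 140 and 193 (adjusted p = 0.000337). The rule, in both directions, took only genes whose gates did not overlap. The call of Ncald (adjusted p = 0.0399) was lost without KLRG1+ replicate 1 or 3 or KLRG1- replicate 1, 3 or 4 (up to 0.11), and that of Ehbp1l1 and of Pear1 without both replicates 3 and 4 (0.0716 and 0.0618). Among leading genes that fell were P2ry10 (-3.64), a lysophospholipid receptor, Kbtbd11 (-3.59), Nsrp1 (-3.30), Kdm7a (-3.21), a histone demethylase, Gpn1 (-3.08), Mmd (-3.06) and Tnik (-2.73). In KLRG1+ libraries each of these was at 0 to 33.2 CPM and in KLRG1- libraries at 34.6 to 195. The call of Kdm7a (adjusted p = 0.0224) was lost without KLRG1+ replicate 4 or KLRG1- replicate 3 (up to 0.0526), and those of Kdm7a and Tnik without both KLRG1+ replicates 3 and 4 (0.098 and 0.0853).

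Several groups showed few or no calls. None of 20 T cell receptor signalling genes was called, with log2 fold changes from -0.47 to 0.90, while the fit without KLRG1+ replicates 3 and 4 called 4 higher, Cd247, Lck, Plcg1 and Cd6. None of 22 interferon-stimulated genes was called, from -1.28 to 0.84, and none of 10 well-expressed inhibitory receptor genes, from -1.12 to 1.39. Without those 2 libraries 1 interferon-stimulated gene was called lower, and 1 inhibitory receptor gene was called in each direction. Havcr2, the gene of TIM-3, was at 73.0, 112, 0 and 0 CPM in KLRG1+ and at 10.9 to 21.2 CPM in KLRG1- libraries, and was not called (1.57, adjusted p = 0.214). Without KLRG1+ replicates 3 and 4 its difference was 2.46 (adjusted p = 6.44e-06). Lag3 and Tigit had means below 50 CPM in both gates, as did Ctla4, which had no count in KLRG1+ libraries and a mean of 20.9 CPM in KLRG1- libraries. Of 14 glycolysis genes 2 were called higher, Slc2a3 and Hk1, of 10 survival and death genes Bcl2 alone was called, of 8 GIMAP genes Gimap5 alone was called lower, of 11 heat-shock genes Hsph1 alone was called higher, and of 9 costimulatory receptors Slamf7 alone was called higher. The calls of Slc2a3, Hk1, Gimap5 and Hsph1 each depended on single libraries, with adjusted p of up to 0.153, 0.197, 0.103 and 0.123. Slc2a3 was lost without KLRG1+ replicate 1 or 2 or KLRG1- replicate 2, 3 or 4, and Hk1 without KLRG1+ replicate 2 or 3 or KLRG1- replicate 1, 2 or 3. Gimap5 was lost without KLRG1+ replicate 2 or 4 or KLRG1- replicate 1, 2 or 3, and Hsph1 without KLRG1+ replicate 4 or KLRG1- replicate 1, 2 or 4. Slamf7, a receptor of cytotoxic cells, was at 194 to 397 CPM against 135 to 178 (1.07 ± 0.22, adjusted p = 0.0029).

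**Figure D4:**
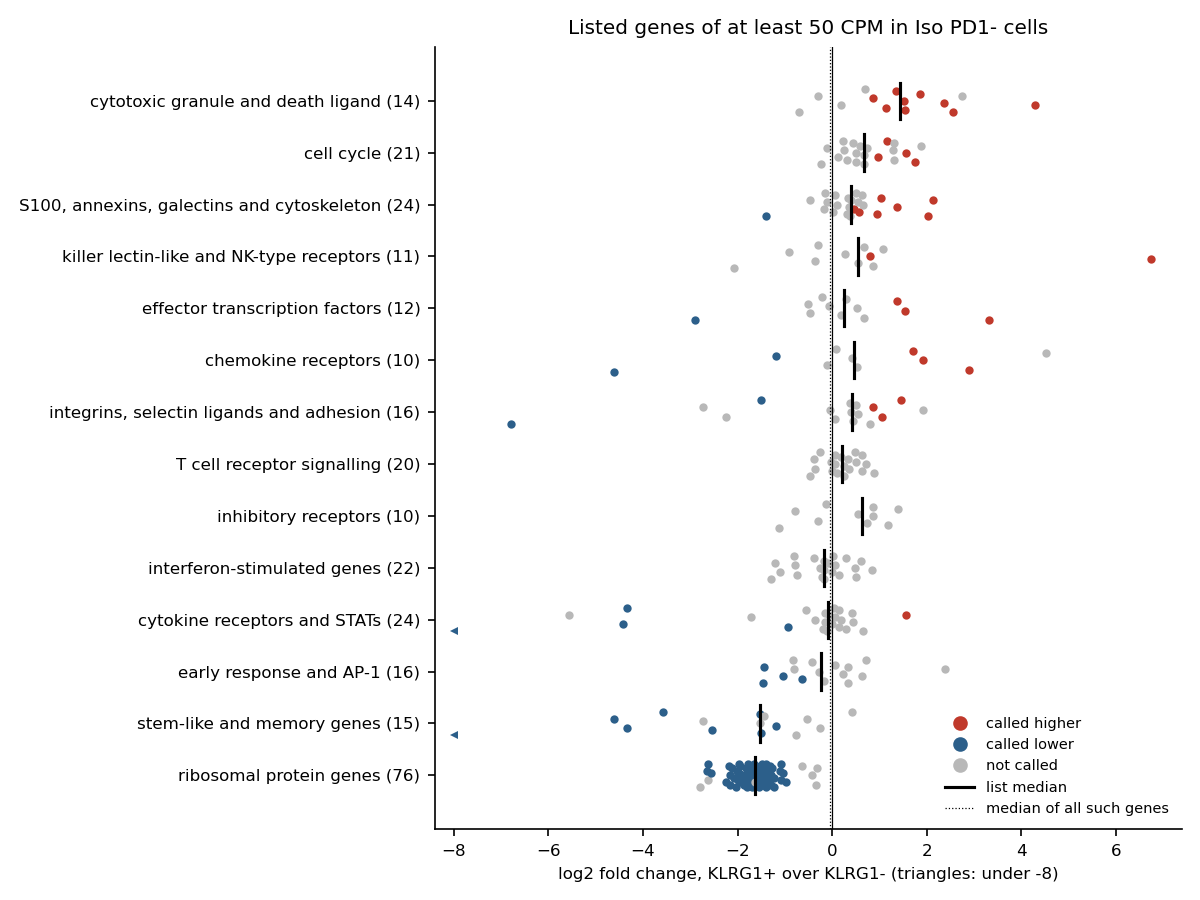
Log2 fold change of KLRG1+ over KLRG1- Iso PD1- cells for each well-expressed member of 14 gene lists (number of members in brackets), with the list median as a bar and values under -8 as triangles. The cytotoxic list has a median of 1.44 with 9 called higher, and the stem-like and memory list a median of -1.52 with 8 called lower.

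Markers of other cells were present at low or uneven levels. None of 14 well-expressed myeloid markers was called, and Lyz2 was at 194, 168, 9.21 and 1790 CPM against 51.5 to 828. Without replicates 3 and 4, 3 myeloid markers were called lower. None of 6 well-expressed stroma markers was called, and Col3a1 was at 72.5, 288, 0 and 1679 CPM against 8.18 to 23.9. Of 10 B cell markers, 6 had no count in KLRG1+ libraries. All 12 NK and innate-like markers had a count in at least 1 library of each gate, and their summed level was 221 to 752 CPM in KLRG1+ and 441 to 551 in KLRG1- libraries. Tcrg-C2, a gamma chain constant gene, was the 1 of them called, and lower (-1.58, adjusted p = 0.0192), but not without KLRG1+ replicate 2 or KLRG1- replicate 1 (up to 0.0576).

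The same contrast was available in Tri PD1- cells, in other libraries. There no gene was called (0% of 14059, edgeR, with 675 at an unadjusted p under 0.05). Klrg1, which followed the labels in Iso cells, was thus not called there either, and its difference between the 2 treatments, tested below, did not pass. A lack of calls in Tri PD1- cells is therefore no measure of equal expression between the gates. Of the 166 genes called higher in Iso cells, 81.3% had a positive log2 fold change in Tri PD1- cells, against 52.8% of all well-expressed genes, and their median there was 0.25 against 1.28 in Iso cells. Of the 297 called lower, 65.3% were negative against 47.2%, with a median of -0.07 against -1.55. Across the 5169 genes, which are not independent replicates, the 2 log2 fold changes had a Pearson correlation of 0.14 and a Spearman correlation of 0.22.

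**Figure D5:**
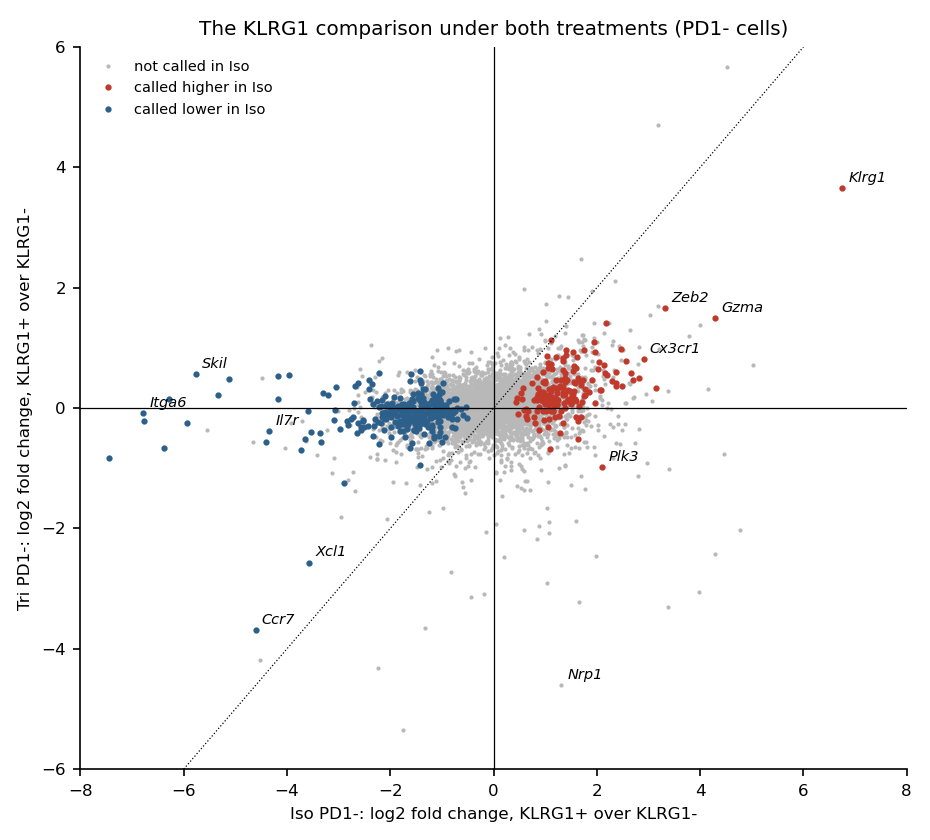
Log2 fold change of KLRG1+ over KLRG1- in Tri PD1- cells (vertical) against Iso PD1- cells (horizontal), 1 point per well-expressed gene, with the line of equal values dotted and 16 genes beyond the axes. Genes called lower in Iso have a median of -0.07 under Tri, while Ccr7 is at -3.69 and Xcl1 at -2.57.

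The difference between the 2 treatments in this contrast, tested as an interaction, was more positive in Iso for 26 genes (0.185% of 14059) and more negative for 479 (3.41%). Of these 505 genes, 264 had no count in any Iso PD1-KLRG1+ library, and among the 5169 well-expressed genes 19 were more positive and 92 more negative. Without KLRG1+ replicate 1 or 2 the genes called in either direction went from 505 to 798 or 866, and without KLRG1- replicate 2 to 318. Since the interaction holds the Iso contrast itself, genes called there are favoured. Of the well-expressed genes called in Iso, 17 of 166 and 91 of 297 also passed the interaction, 40 of the 91 being ribosomal protein genes. Gzmb had an interaction of 1.78 ± 0.27 (adjusted p = 0.000326). Its KLRG1+ means were close, 3224 ± 964 CPM in Iso and 3376 ± 538 in Tri, while its KLRG1- means were 550 ± 19.9 and 1960 ± 280. Gzmk means were 474 ± 320 CPM in Iso and 854 ± 134 in Tri KLRG1+ cells, and 93.1 ± 25.7 and 544 ± 188 in KLRG1- cells (interaction 1.78 ± 0.44, adjusted p = 0.0222). Prf1 (1.58, adjusted p = 0.0235), Fasl (1.32, adjusted p = 0.031), Ctsd (1.00, adjusted p = 0.0258) and Klrk1 (1.05, adjusted p = 0.0161) also passed. Of the 14 cytotoxic genes, 5 were more positive in Iso and none more negative.

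For Il7r the KLRG1+ side differed. It was at 140 ± 86.6 CPM in Tri and 11.4 ± 13.1 in Iso PD1-KLRG1+ cells, and at 175 ± 29.8 and 270 ± 31.8 in the KLRG1- cells (interaction -3.97 ± 0.89, adjusted p = 0.0118). Cd69 was at 374 ± 45.4 CPM in Tri and 91.5 ± 43.8 in Iso PD1-KLRG1+ cells (interaction -1.6, adjusted p = 0.0194). Skil, Itga6, Mmd and Dido1 had interactions of -6.33, -6.70, -3.40 and -7.48, and none differed by more than 0.56 between the gates under Tri. Plk3, a stress-responsive kinase, went the other way, at 164 ± 104 against 37.0 ± 14.4 CPM in Iso and 49.9 ± 19.5 against 102 ± 52.4 CPM in Tri (interaction 3.09 ± 0.66, adjusted p = 0.00852). Its Iso difference was called (2.11, adjusted p = 0.00614) but not without KLRG1+ replicates 3 and 4 (0.108). Nrp1, neuropilin 1, was at 28.7, 33.1, 258 and 94.3 CPM in Iso PD1-KLRG1+ and 1.21 ± 2.43 CPM in Tri PD1-KLRG1+ libraries (interaction 5.91 ± 1.41, adjusted p = 0.0185). It was not called within Iso, where its highest value came from the shallow replicate 3. Ccr7, Xcl1, Zeb2, Cx3cr1, Gzma and Ccl5 did not pass the interaction (adjusted p of 0.88, 0.81, 0.273, 0.0619, 0.132 and 0.32).

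In Tri PD1+ cells, 8 genes (0.0569%) were called between the KLRG1 gates, 4 in each direction. Of the 8, 7 were also called in Iso PD1- cells, where 1218 of all 14059 genes tested were called. The 8 include Klrg1, the gene of the sort in both contrasts, Gzmb (0.98), Gzmk (1.56) and Ccl5 (1.56), which were higher. Id3, which was lower, is also among them. Across all well-expressed genes the PD1+ and Iso contrasts had correlations of 0.06 (Pearson) and -0.02 (Spearman).

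Counting only genes called in the fit of all libraries, in the fit of the 8 Iso libraries and in the fit without replicates 3 and 4, 26 genes were higher and 81 lower, 43 of the 81 being ribosomal protein genes. The 26 include Klrg1, Gzma, Gzmb, Gzmk, Prf1, Fasl, Ccl5, Cx3cr1, Tbx21, Itgb2, Anxa2, Myo1f, Flna, Ctsd, E2f2 and Sh2d3c. They also include Atp6v0a2, a subunit of the vacuolar proton pump (1.96), Ctsa, cathepsin A (1.14), Ncstn, nicastrin of gamma-secretase (1.499), Atp2a3, a calcium pump of the endoplasmic reticulum (1.77), and Sema4d, a semaphorin of T cells (1.07). The 81 include Id3, Il6ra, Srf, Skil, Il7r, Lef1, Emb, Cd69, Btg1 and Ltb, and besides them Dapl1, at means of 0.0345 and 139.7 CPM, Gas5, the host of small nucleolar RNAs (-2.51), and Malat1, a nuclear RNA (-1.73). This last set was chosen after the values were seen. The fits counted here use the same model and share libraries, so they are not separate tests. Of the 166 higher and 297 lower calls, the fit with genes detected as a covariate shared 17 and 19. Limma-voom with sample weights shared 12 and 0.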

How the data were processed

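RNA was sequenced in bulk from sorted CD8+ T cells. Per the labels, the authors deposited 1 table of gene counts for all libraries; its values are whole numbers, and the aligner, build and annotation were not stated in the material analysed here. The submitters' processing notes name DESeq2 1.26.0 without its role. Symbols were matched for 47224 of 47729 identifiers.

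Genes were kept by edgeR's filter (minimum count 10), scaled by TMM, and fitted with the robust quasi-likelihood model of edgeR 4.0.16 (R 4.3.3) over 27 libraries, with 6 groups and a term for the name suffix. Benjamini-Hochberg adjustment ran over 14059 genes, with a threshold of 0.05. SE is the log2 fold change divided by the root of F. Library measures were compared by 2-sided exact permutation tests. Totals ranged from 93198 to 26284630 counts, and 1 count in the smallest library is 9.21 CPM. The scripts were tested on simulated data with an equal spread in all libraries. That test does not cover the wider spread and the missing genes of the Iso PD1-KLRG1+ libraries. Promoter windows are the 250 bases before a start.

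Named genes are the sort markers, up to 14 called genes per direction of largest change without overlap, up to 6 without KLRG1+ counts, up to 5 per gene list by p, up to 5 per direction of the interaction, and list members set beside these. Genes, lists and groups were chosen with earlier results of these data known. Alternatives were RLE scaling, other filters, DESeq2 1.42.0, limma-voom 3.58.1 with sample weights, a covariate for genes detected, a replicate block, the 8 Iso libraries alone, libraries without the suffix, and leaving out libraries. Some genes are not reported here.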

Additional observations from a re-analysis of the deposited data

Results flagged for a closer look

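Of 318 sets of 4 values (a gene or library measure in 1 gate) 30 had a single library far from the other three; chance alone flags about 5%. KLRG1+ replicate 4 accounted for 12. It held 13910 CPM of myeloid markers, 4156 CPM of tumour and stroma markers, 1790 CPM of Lyz2, 678.5 of Ctss, 421 of Cst3, 1172 of Col1a1 and 198.3 of Dcn. Its mitochondrial transcripts were high as well, with mt-Cytb at 14240, mt-Atp8 at 934.2, mt-Rnr1 at 932 and mt-Nd6 at 454.3 CPM, while Hcst, the adaptor of NKG2D, was low at 153.5 CPM. KLRG1+ replicate 3 was high in Gimap1 (838.5 CPM), Gpr183 (175.1), Sh2d3c (1078) and Itga6 (9.214, a single count) and low in Rps20 (64.5). KLRG1+ replicate 1 was high in Gzma (3969 CPM) and Gzmk (950.5), and KLRG1+ replicate 2 in Ikzf2 (20.58) and Kdm7a (14.22). Among KLRG1- libraries, replicate 4 was high in myeloid markers (5637 CPM), Lyz2 (828.4), Fyn (636.6), Gpn1 (68.1), Itgal (778.3), Myo1f (420.9), Pfkp (489.3) and Ptprc (2316), and replicate 3 in Dcn (4.925).

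Over all 14059 genes tested, 505 passed edgeR's interaction test of Iso against Tri PD1- cells. Named genes include up to 5 per direction picked for this interaction and others picked on the Iso contrast, so their count is favoured by the choice. The KLRG1 comparison differed between Iso and Tri PD1- cells, by this test, in 32 of 149 named genes. It was more positive in Iso, by a log2 difference of 5.912 for Nrp1, 3.091 for Plk3, 2.148 for Snx11, 1.878 for Atp6v0a2, 1.855 for Rps6ka4, 1.781 for Gzmb, 1.777 for Gzmk, 1.765 for Sh2d3c, 1.585 for Prf1, 1.3 for Bhlhe40, 1.156 for Itgb2, 1.054 for Klrk1, 0.997 for Ctsd and 0.9499 for Anxa2. It was more negative in Iso for the ribosomal protein genes Rps20 (-2.38), Rpl15 (-1.934), Rps25 (-1.593), Rpl13 (-1.345) and Rps19 (-1.338) and the pseudogene Rps12-ps3 (-2.578), whose reads may come from its parent gene. The same held for Il7r (-3.966), Cd69 (-1.6), Tmsb10 (-1.32), Mmd (-3.404), Skil (-6.329), Itga6 (-6.703) and Dido1 (-7.48). For genes with no count in Iso PD1-KLRG1+ libraries the fitted difference depends on the prior count and is no measure of size: Id3 (-11.7), Klra6 (-12.25), Pwp2 (-12.18), Srf (-13.07) and Tent5c (-12.01).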

How the results depend on the processing

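The main counts were 174 genes higher and 1044 lower over all genes, 166 and 297 among well-expressed genes, and 505 in the interaction, and no alternative called a well-expressed gene in the opposite direction. The 8 Iso libraries alone gave 32 higher over all genes, and 32 higher and 84 lower among well-expressed genes. DESeq2 gave 519 and 1822 over all genes, 456 higher among well-expressed genes and 1264 in the interaction. With genes detected as a covariate the counts were 72 and 154, 36 and 21, and 119, and the log2 fold change of Hk1 turned to -0.01782. Limma-voom with sample weights gave 13 and 0 over all genes, 13 and 0 among well-expressed genes, and 0 in the interaction, where edgeR had 2568 genes at an unadjusted p under 0.05; of the 83 named genes called, 12 were kept. Median-ratio scaling gave 275 higher over all genes and 264 among well-expressed genes. Restricting the fit to genes with a mean of 50 CPM over the 8 libraries gave 250 lower and 14 in the interaction, where fewer genes were tested. Libraries without the suffix gave 298 in the interaction. Without KLRG1+ replicates 3 and 4 the counts were 302 higher over all genes, 274 and 505 among well-expressed genes, and 972 in the interaction. Leaving out 1 library gave 85 to 276 higher and 798 to 1369 lower over all genes, 83 to 251 higher and 211 to 492 lower among well-expressed genes, and 318 to 866 in the interaction. The cause of these shifts was not tested.

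The titles number the libraries of both gates alike, but the labels do not say whether a number stands for a shared source. Correlations of the deviations of same-numbered libraries were 0.03, -0.01, 0.04 and 0.11. As these were not all over 0.1, the numbers were not treated as pairing the samples. KLRG1+ replicates correlated at only 0.54 to 0.66 with each other, so these low values cannot exclude pairing. The value for replicate 4 lay above the highest between different numbers, 0.082. With a replicate block over all libraries the interaction count was 277 and the well-expressed calls 126 higher and 413 lower. The 8 Iso libraries with a replicate block, which leaves 3 residual degrees of freedom, gave 3 higher and 3 lower, over all genes and among well-expressed genes.

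Of the library measures, none passed after adjustment, and some turned direction. The difference in mitochondrial share (main 0.577 percentage points) ranged from -1.25 to 1.47 on leaving out 1 library and was -0.8246 without KLRG1+ replicates 3 and 4. That in myeloid CPM (main 1430) ranged from -1773 to 2688 and was -1488 without both. That in NK and innate-like CPM (main -11.7) ranged from -98.4 to 78.4, and was 4.24 without KLRG1- replicate 1. The low total of KLRG1+ replicate 3 limits any statement on genes of few CPM in it.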
